A study of Homo sapiens with 6 samples.

Results

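The genes described here encode 8 enzymes that make or use glutamate, glutamine, asparagine, alanine and proline: GLUL, GLUD1, GOT1, GOT2, GPT2, ASNS, ALDH18A1 and PYCR1. They were chosen by function, with earlier results of these data known. They were found by symbol, 8 of the 61533 gene rows of the count table. RNA was sequenced from MDA-MB-231, a cell line from a human breast cancer of the triple-negative type, as 3 libraries from cells with an empty vector and 3 libraries from cells with shKDM2B, a short hairpin RNA that knocks down KDM2B. KDM2B is a histone demethylase that binds unmethylated CpG DNA and takes part in the noncanonical Polycomb complex PRC1.1. The series concerns its control of amino acid metabolism, in which MYC and ATF4 are the other regulators named. Both groups were grown in the same medium, DMEM with added l-glutamine, nonessential amino acids, pyruvate, fetal bovine serum, the antibiotics penicillin and streptomycin and the antimycoplasma agent plasmocin, and were harvested before confluence. The hairpin's sequence, its promoter and whether the lines are clones or pools were not stated in the sources used here. The 3 shKDM2B columns share the same code, and shKDM2B is the only shRNA group. With an empty vector as control, loss of KDM2B and other effects of a hairpin cannot be told apart.

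Glutamine is the main nitrogen carrier in cultured cells. Its breakdown gives glutamate, and glutamine synthetase (GLUL) runs the opposite way. Glutamate then hands its amino group to other carbon skeletons through transaminases, loses it as ammonia through glutamate dehydrogenase (GLUD1), or is reduced and cyclised to proline by ALDH18A1 and the PYCR enzymes. Asparagine synthetase (ASNS) takes the amide nitrogen of glutamine to make asparagine from aspartate. ASNS is a textbook target of ATF4, which turns on genes for amino acid supply when cells run short.

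Library totals ran from 10190149 to 15737951 counts. KDM2B, the targeted gene, had 589, 714 and 902 counts in the empty vector libraries and 153, 166 and 224 in the shKDM2B libraries, which held 23.1% of the empty vector mean after scaling. Of the other regulators in the series title, ATF4 had a log2 fold change of -1.77 (SE 0.07) and MYC of -0.88 (SE 0.05). Markers of the line were present (VIM, CD44, KRT18, KRT8 and AXL), and ESR1 and PGR, the hormone receptors a triple-negative line lacks, had at most 4 counts in any library. The line markers did not all keep their level: VIM, a mesenchymal filament gene, was lower (-1.68 on the log2 scale, adjusted p 1.43e-12), KRT8, CD44 and AXL were higher (0.49, 0.20 and 0.17), KRT18 did not pass the threshold (0.19), and their summed level was 5108 to 5234 CPM (a gene's share of its library's counts on the usual CPM scale, corrected by TMM) in empty vector and 4823 to 5006 CPM in shKDM2B libraries. ERBB2 was not near 0, with 561 to 1001 counts. The 16 leukocyte, fibroblast and endothelial markers examined had at most 12 counts each, 2 of them (CD3E and LYZ) were at 0 in all libraries, and none was high enough to test. Their summed levels were 0.195 to 0.381 CPM in empty vector and 0.875 to 1.11 CPM in shKDM2B libraries for the 7 leukocyte genes, 0.0972 to 0.362 against 0.0972 to 0.613 for the 5 fibroblast genes, and 0.584 to 0.797 against 1.04 to 1.85 for the 4 endothelial genes. One library, shKDM2B replicate 1, differed from the rest: small RNA genes took 0.499% of its counts, against 0.135 to 0.198% in the other 5. Mitochondrially encoded genes took 0.0767 to 0.151% of counts in empty vector and 0.196 to 0.476% in shKDM2B libraries. The part of these differences in the results was not tested, and values without that library are given where they differ.

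All 8 genes had enough counts to be tested, and all 8 passed the threshold of an adjusted p under 0.05. Of all 14071 tested genes, 60.9% did so. Since the 8 were chosen with earlier results of these data known, their shares only describe them. ASNS passed the low-count filter (at least 10 counts) only through its empty vector libraries, the group where it is high. Its call, the separation of its groups and its rank among tested genes carry that condition. ASNS, GPT2, GLUL, PYCR1, ALDH18A1 and GOT2 were lower in shKDM2B cells (6 of 8, where 30.4% of tested genes were called lower), and GOT1 and GLUD1 were higher (2 of 8, where 30.5% were called higher). The 2 groups of libraries did not overlap for any of the 8, as for 65.5% of all tested genes. The median log2 fold change of the 8 was -0.75, and that of all tested genes was -0.0067. Their sizes fell in 3 ranges. ASNS stood at -2.91, GPT2, GLUL and PYCR1 lay between -1.11 and -0.97, and the other 4 lay between -0.52 and 0.24. The ASNS value is for its own row, and summed with a gene that shares its exons, as described below, it stood at -1.56. In bulk RNA, fewer cells that express a gene and less RNA per cell cannot be told apart.

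**Figure D1:**
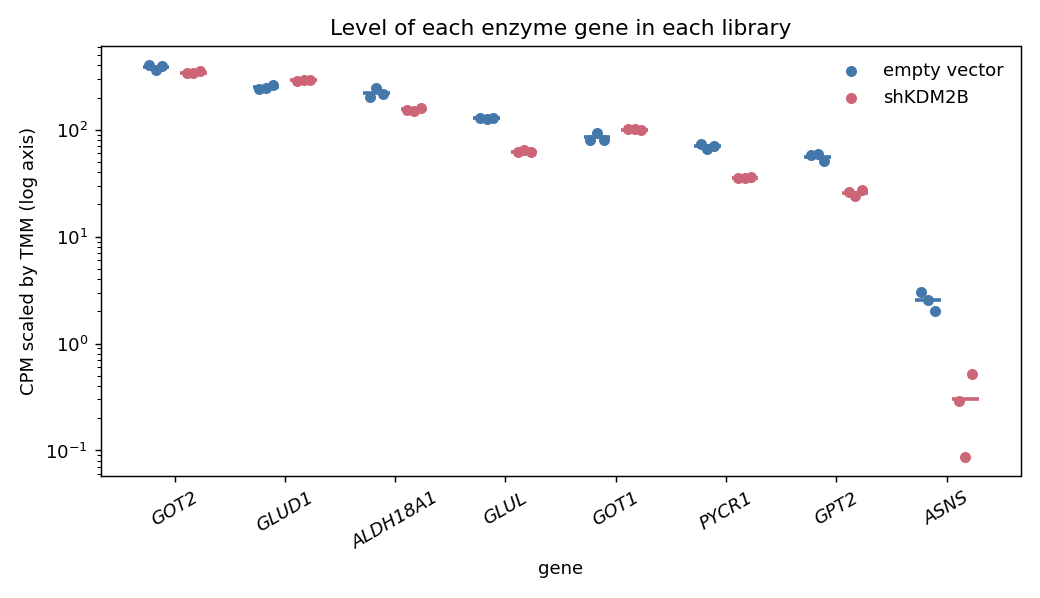
Levels of the 8 enzyme genes in each library, in CPM scaled by TMM on a log axis, with 1 point per library (blue, empty vector; red, shKDM2B) and a line at each mean of 3. The groups separate for every gene, by a wide margin for ASNS and by a narrow one for GOT2 and GOT1.

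**Figure D2:**
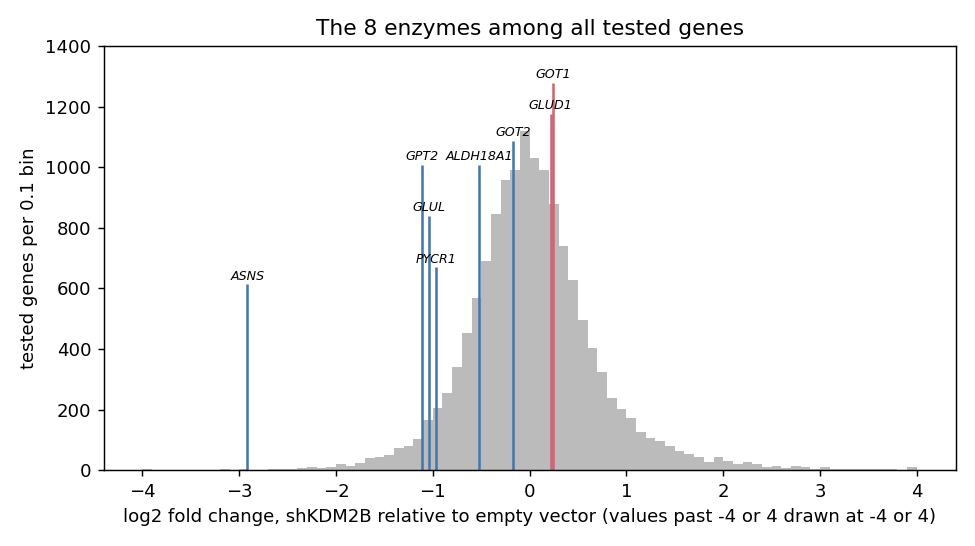
Histogram of the log2 fold changes of all 14071 tested genes in bins of 0.1, with the 8 enzymes marked by lines whose heights carry no value. ASNS lies in the far lower tail, while GOT2, GLUD1 and GOT1 lie inside the bulk of all genes. The ASNS line is for its own row, and summed with the gene that shares its exons it stood at -1.56.

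GLUL, glutamine synthetase, makes glutamine from glutamate and ammonia. Its level was 128, 127 and 129 CPM in empty vector replicates 1, 2 and 3 and 61.4, 64.2 and 61.7 CPM in shKDM2B replicates 1, 2 and 3. Replicates lay close together in both groups, and the shKDM2B libraries held 48.8% of the empty vector mean (128 ± 0.994 against 62.5 ± 1.51 CPM, SD, n = 3 each). On the log2 scale GLUL changed by -1.04 (SE 0.05, adjusted p 6.20e-10), and 4.48% of tested genes had a lower fold change. The gene (ENSG00000135821.19) spans 182381704 to 182392206 of chromosome 1, minus strand (GRCh38). None of its exonic bases is shared with another annotated gene, and its pseudogene rows (GLULP3 to GLULP6) had no counts in any library, although reads that match both places could have been left out of either.

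GLUD1 encodes the mitochondrial glutamate dehydrogenase, which releases ammonia from glutamate. It was at 243, 244 and 261 CPM in empty vector and at 288, 290 and 291 in shKDM2B replicates 1 to 3. The shKDM2B libraries agreed within a few CPM and all lay above the highest empty vector library. The rise was small, 1.16-fold (log2 fold change 0.22, SE 0.05, adjusted p 0.00126), and 66.1% of tested genes had a lower fold change. GLUD1 (ENSG00000148672.10, chromosome 10 from 87050486 to 87094866, minus strand) shares 13.2% of its exonic bases with SHLD2 on the opposite strand. Its near-identical copy GLUD2 had 5 to 13 counts and the pseudogene GLUD1P3 had 17 to 34, against 2495 to 4473 for GLUD1, so few reads were assigned to the copies.

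The transaminases GOT1 and GOT2 catalyse the same exchange between aspartate and glutamate, GOT1 in the cytosol and GOT2 in mitochondria. Together with malate dehydrogenases and carriers they form the malate-aspartate shuttle, which moves reducing power across the mitochondrial membrane. Their changes were opposite in sign and both were small. GOT2 was at 399, 359 and 395 CPM in empty vector and at 337, 336 and 353 in shKDM2B libraries. Its groups came near each other, with empty vector replicate 2 only slightly above the highest shKDM2B library. GOT2 had a log2 fold change of -0.17 (SE 0.05, adjusted p 0.0105), and the call was lost without shKDM2B replicate 1 (adjusted p 0.0515) or replicate 2 (adjusted p 0.0591). GOT2 (ENSG00000125166.13, chromosome 16 from 58707131 to 58734357, minus strand) shares 4.30% of its exonic bases with a noncoding gene on the other strand, and its 6 pseudogene rows had at most 1 count.

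GOT1 was at 79.4, 94.1 and 80.7 CPM in empty vector and at 101, 101 and 99.3 in shKDM2B libraries. Empty vector replicate 2 was the highest of its group, and without it the log2 fold change of GOT1 rose from 0.24 (SE 0.06, adjusted p 0.00430) to 0.32. GOT1 (ENSG00000120053.12, chromosome 10 from 99396870 to 99431569, minus strand) shares 19.3% of its exonic bases with a divergent noncoding gene on the other strand, which had 10 to 31 counts. The ratio of GOT1 to GOT2 counts per kilobase was 0.222, 0.293 and 0.228 in empty vector and 0.336, 0.334 and 0.314 in shKDM2B libraries. GOT2 thus stayed the more abundant transcript per length in every library, and the ratio was higher in all 3 shKDM2B libraries (log2 difference 0.42, exact two-sided permutation p 0.1, the smallest that 3 against 3 allows, and 0.1 after adjustment over the 5 ratios tested, of which 3 are given).

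GPT2, the mitochondrial alanine transaminase, makes alanine and 2-oxoglutarate from pyruvate and glutamate. Its level was 57.8, 59.0 and 51.2 CPM in empty vector and 26.1, 24.0 and 27.2 in shKDM2B libraries. The lowest empty vector library was well above the highest shKDM2B library. GPT2 fell 2.16-fold (log2 fold change -1.11, SE 0.08, adjusted p 2.90e-08), and 3.59% of tested genes had a lower fold change. GPT2 (ENSG00000166123.14) lies on the plus strand of chromosome 16 from 46884378 to 46931297 and shares no exonic base with another gene. GPT, its cytosolic counterpart, had 2 to 18 counts and was too low to test. GPT2 and GLUD1 both turn glutamate into 2-oxoglutarate in mitochondria, the first by handing on the amino group and the second by releasing it. The ratio of GPT2 to GLUD1 counts per kilobase was 0.132, 0.134 and 0.109 in empty vector and 0.0501, 0.0459 and 0.0518 in shKDM2B libraries. The groups did not overlap, with a log2 difference of -1.34 (exact two-sided permutation p 0.1, adjusted 0.1).

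ASNS had 31, 27 and 28 counts in empty vector replicates 1, 2 and 3 and 3, 1 and 8 counts in shKDM2B replicates 1, 2 and 3. In CPM these were 3.01, 2.57 and 2.03 against 0.292, 0.0876 and 0.521. Every shKDM2B library lay far below every empty vector library, and of all tested genes 0.107% had a lower log2 fold change. Both statements carry the condition that ASNS passed the low-count filter only through its empty vector libraries, where it is high. ASNS had a log2 fold change of -2.91 (SE 0.40, adjusted p 2.36e-05), the largest and the least precise of the 8. Over the pooled counts, 86 in empty vector and 12 in shKDM2B, the scaled shKDM2B level was 13.0% of empty vector, with an exact conditional 95% interval of 6.48 to 23.9% that covers counting error only. Leaving out 1 library at a time moved the log2 fold change between -3.68 (without shKDM2B replicate 3) and -2.52 (without shKDM2B replicate 2).

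ASNS (ENSG00000070669.17) spans 97852118 to 97872542 of chromosome 7, minus strand. In GENCODE 29 a longer noncoding gene on the same strand, AC079781.5 (ENSG00000284707), runs through it and shares 1985 of its 4455 exonic bases (44.6%). Of the 1752 coding bases of ASNS, 69 are outside the exons of that gene. By default, featureCounts, which the submitters' processing notes name, does not assign a read that overlaps exons of several genes, and the setting used was not stated in the sources used here. The overlapping gene's own row had 11, 12 and 12 counts in empty vector and 8, 11 and 13 in shKDM2B libraries, with a log2 fold change of -0.23 (SE 0.33, adjusted p 0.587). With both rows summed, a combination chosen after the counts were seen, the log2 fold change was -1.56 (adjusted p 7.89e-05). How many ASNS reads were left unassigned, and the part of this in its level and fold change, was not tested, so its level is not set against those of the other 7.

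**Figure D3:**
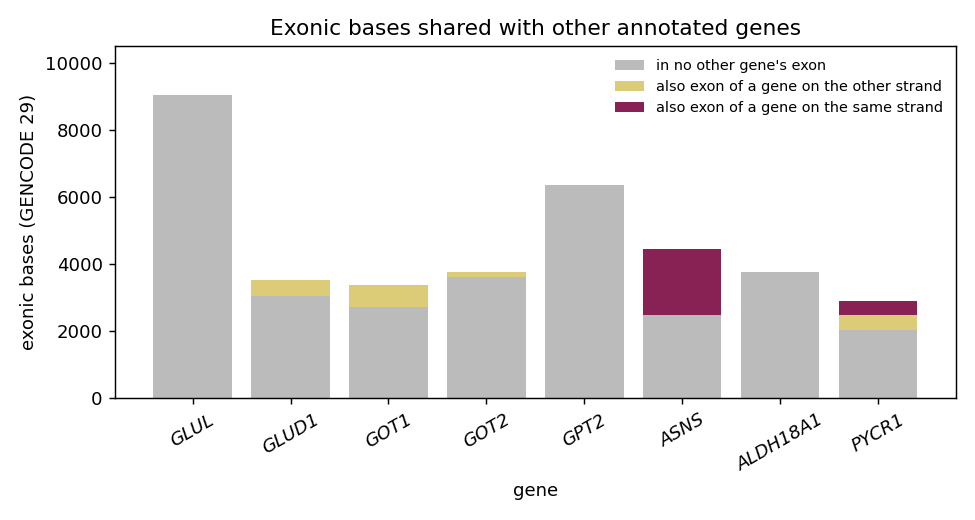
Exonic bases of each of the 8 genes in GENCODE 29, stacked by whether they are also exon of another annotated gene on the same strand (purple), on the other strand (yellow) or of no other gene (grey). ASNS has the most same-strand sharing, 1985 of 4455 bases, and PYCR1 is the other gene with any, 408 of 2886.

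Promoter sequences were searched for words of the regulators named in the series title. The C/EBP-ATF response element, bound by ATF4 with a C/EBP partner, has the core TGATGNAA, and MYC binds the E-box CACGTG. Both words were searched on both strands in the RefSeq promoter windows (250 bases before to 50 after the start, GRCh38.p14), in which 6 of the 8 genes were matched, in 8 windows (GPT2 and PYCR1 were not). The first word was found for ASNS and GOT1 and the second for ALDH18A1. Over all 35116 windows, 3.62% hold TGATGNAA and 7.26% hold CACGTG. The 60 bases around each match are given 5′ to 3′ in the gene's sense, with the matched word in capitals. All 3 genes are on the minus strand, and the stretches are chr7:97872443-97872502 for ASNS, chr10:99430789-99430848 for GOT1 and chr10:95656815-95656874 for ALDH18A1.
ASNS: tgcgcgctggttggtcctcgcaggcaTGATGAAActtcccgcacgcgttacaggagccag
GOT1: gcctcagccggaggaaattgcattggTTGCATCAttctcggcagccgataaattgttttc
ALDH18A1: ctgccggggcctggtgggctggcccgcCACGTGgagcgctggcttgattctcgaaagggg
In ASNS the word begins 68 bases before the start of 1 of its 2 windows and reads in the gene's direction. The other ASNS window, with its own start, does not hold the word. In GOT1 it begins 198 bases before the start and lies on the other strand, so that its reverse complement is printed. These 2 genes went in opposite directions, ASNS to 13.0% of its pooled empty vector level and GOT1 up 1.18-fold. The ASNS value is for its own row. Summed with the gene that shares its exons, ASNS had a log2 fold change of -1.56. A match describes letters only and shows neither binding nor a cause.

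CpG dinucleotides, to which KDM2B binds when they are unmethylated, were counted in the same windows. The 8 windows held 21 (GOT2) to 47 (GLUD1) of them, where the median over all windows was 14 and the upper quartile 28. The background is all RefSeq windows, not only those of tested genes. The GLUD1 window had more than 97.6% of all windows. The windows of GLUL held 25 and 29, those of ASNS 27 and 25, that of ALDH18A1 31 and that of GOT1 24. A CpG count shows neither methylation nor binding nor a cause, and its part in the fold changes was not tested.

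Proline is made from glutamate by ALDH18A1, a mitochondrial enzyme that forms the semialdehyde, and by the PYCR reductases, which complete the ring. ALDH18A1 was at 204, 248 and 217 CPM in empty vector and at 154, 150 and 161 in shKDM2B libraries. Empty vector replicate 2 was the highest of its group, and the lowest empty vector library still lay above all shKDM2B libraries. ALDH18A1 fell 1.43-fold (log2 fold change -0.52, SE 0.07, adjusted p 1.01e-05; ENSG00000059573.9, chromosome 10 from 95605929 to 95656706, minus strand).

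PYCR1, the mitochondrial reductase of the last step, was at 74.4, 65.8 and 70.0 CPM in empty vector and at 35.4, 35.5 and 36.3 in shKDM2B libraries. The shKDM2B libraries were nearly equal and held 51.0% of the empty vector mean (log2 fold change -0.97, SE 0.06, adjusted p 1.46e-08). PYCR1 (ENSG00000183010.17, chromosome 17 from 81932384 to 81942412, minus strand) shares 408 of its 2886 exonic bases with MYADML2 on the same strand and 450 with an antisense gene. Those genes had at most 1 count, and no coding base of PYCR1 is shared on its own strand.

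The ratio of ALDH18A1 to PYCR1 counts per kilobase was 2.10, 2.88 and 2.38 in empty vector and 3.34, 3.25 and 3.40 in shKDM2B libraries, a log2 difference of 0.45 (exact two-sided permutation p 0.1, adjusted 0.1). PYCR3, the cytosolic form, went from 47.9 ± 1.87 to 38.2 ± 1.89 CPM (-0.33 on the log2 scale, SE 0.07, adjusted p 8.32e-04).

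In the same list ALDH4A1 and PEPD were higher. ALDH4A1, which carries out the second step of proline breakdown, went from 9.91 ± 0.409 to 14.4 ± 1.99 CPM (0.55 on the log2 scale, SE 0.12, adjusted p 0.00133). PEPD, which frees proline from dipeptides, went from 81.2 ± 12.0 to 103 ± 1.11 CPM (0.35 on the log2 scale, SE 0.08, adjusted p 0.00257). PRODH and PRODH2, the first enzymes of proline and hydroxyproline breakdown, had at most 2 counts in any library. Of the 6 proline genes listed besides ALDH18A1 and PYCR1, 4 were tested, and 2 were lower and 2 higher, where 30.4% of all tested genes were called lower and 30.5% higher.

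**Figure D4:**
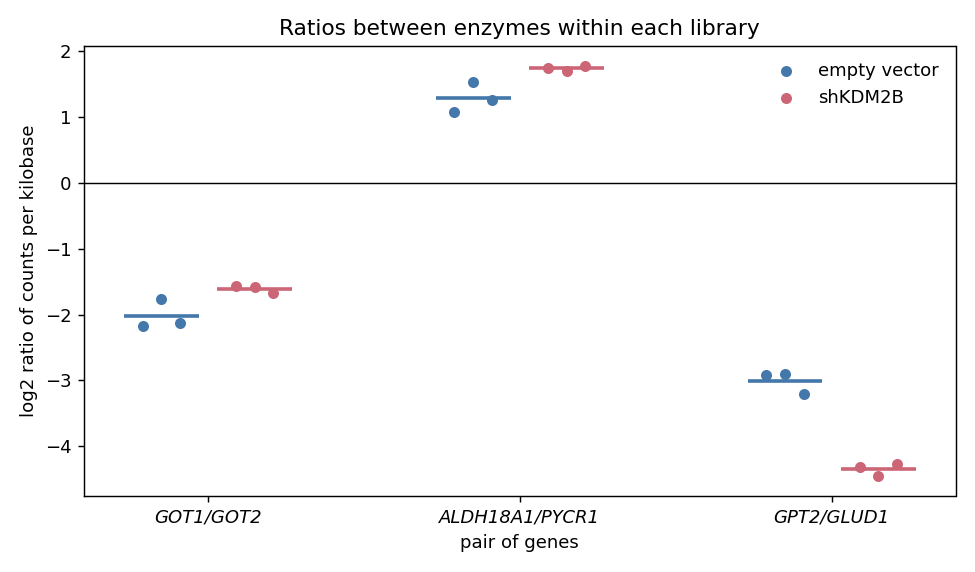
Log2 ratios of counts per kilobase of exon between 3 pairs of enzyme genes within each library, blue for empty vector and red for shKDM2B, with a line at each mean of 3. The groups separate for all 3 pairs, by the widest margin for GPT2/GLUD1.

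The order of the levels per exon length, in CPM per kilobase over all annotated exons, was the same in both groups for the 7 genes other than ASNS, which is left out for the sharing of its exons. In empty vector it ran from GOT2 (102 ± 5.89) through GLUD1 (70.8 ± 2.91), ALDH18A1 (59.2 ± 5.96), GOT1 (25.2 ± 2.41), PYCR1 (24.3 ± 1.49) and GLUL (14.2 ± 0.110) to GPT2 (8.81 ± 0.663). GOT1 and PYCR1 overlapped there, and no other neighbours among the 7 did. In shKDM2B they were apart, GOT1 at 29.8 ± 0.290 and PYCR1 at 12.4 ± 0.182. The scale depends on the annotated exons: those of GLUL cover 9032 bases, of which 1521 are coding.

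Beyond the 8, 51 other enzymes and carriers of the same pathways were listed by function, with earlier results of these data known. Of these, 37 had enough counts to test. Among the tested genes 22 were lower, 8 were higher and 7 missed the threshold, and their median was -0.23 on the log2 scale. That is 30 of 37 called, where the whole table had 60.9%, with 30.4% lower and 30.5% higher. Given how the lists were chosen, these shares and those of the single lists only describe them.

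Among other transaminases that use glutamate, 5 of 6 tested genes were lower, where 30.4% of all tested genes were. PSAT1 of serine synthesis (log2 fold change -1.48, SE 0.06), the branched-chain transaminases BCAT2 (-1.38, SE 0.10) and BCAT1 (-0.96, SE 0.05), and AADAT, which acts on 2-aminoadipate and kynurenine (-0.71, SE 0.10), led the list. BCAT1 had a level of 406 ± 4.44 CPM in empty vector and 209 ± 7.29 in shKDM2B. The gene that was higher, OAT (0.16, SE 0.06, adjusted p 0.0240), lost its call without empty vector replicate 1 or 3 or shKDM2B replicate 2 or 3 (adjusted p 0.0522 to 0.123), with scaling by library totals (0.0558) and without the low-count filter (0.0969). GPT, GOT1L1, KYAT1 and TAT were too low to test.

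In the list of glutamine, glutamate and GABA enzymes, 3 of 4 tested genes were lower, where 30.4% of all tested genes were. NAGS, which makes the N-acetylglutamate that activates the urea cycle, fell from 16.6 ± 2.05 to 8.51 ± 0.765 CPM (a log2 change of -0.97, SE 0.12, adjusted p 1.03e-05). ALDH5A1 of GABA breakdown stood at -0.27 (SE 0.11, adjusted p 0.0421), a call lost without any 1 library other than empty vector replicate 3 (adjusted p 0.0668 to 0.123), with DESeq2 (0.124), without the low-count filter (0.0508) and with the replicate block (0.0601). GAD1, which makes GABA, did not pass the threshold (log2 fold change -0.23, adjusted p 0.147), and did so without empty vector replicate 2 (-0.34, adjusted p 0.0197).

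Among aspartate and asparagine genes, ASRGL1, which hydrolyses asparagine, went from 3.04 ± 0.172 to 4.66 ± 0.293 CPM (0.61 on the log2 scale, SE 0.17, adjusted p 0.00645), the direction opposite to ASNS. ADSS2, which uses aspartate in AMP synthesis, was lower (-0.32, SE 0.05). ASS1, ASL and NAT8L did not pass the threshold, with log2 fold changes of 0.15, 0.05 and -0.05. ASPG, the other asparaginase gene listed, had 5 counts in 1 library and 0 in the other 5.

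Enzymes that, like ASNS, take the amide nitrogen of glutamine were lower for 7 of 10 tested genes, where 30.4% of all tested genes were. They were led by NADSYN1 of NAD synthesis (log2 fold change -0.83, SE 0.10), PFAS (-0.60, SE 0.05) and GMPS (-0.48, SE 0.05) of purine synthesis and CAD of pyrimidine synthesis (-0.44, SE 0.05). CAD was at 544 ± 32.9 CPM in empty vector and 400.2 ± 15.4 in shKDM2B libraries. GFPT1, which starts the hexosamine pathway, was higher, at 241 ± 9.10 against 281 ± 4.50 CPM (0.22, SE 0.05, adjusted p 0.00108). CTPS2 of CTP synthesis (-0.26, SE 0.11, adjusted p 0.0479) lost its call without empty vector replicate 2 or 3 or shKDM2B replicate 1 or 2 (adjusted p 0.0775 to 0.180), with DESeq2 (0.138), without the low-count filter (0.0574) and with the replicate block (0.0637).

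Of the shuttle enzymes and mitochondrial carriers, 4 of 8 were lower and 3 higher, where 30.4% of all tested genes were lower and 30.5% higher, so the share that was higher is near that of all genes. SLC25A22, which carries glutamate into mitochondria, had one of the 2 lowest log2 fold changes among the 8 enzymes and these lists, with ASNS. Their order turned without shKDM2B replicate 2 (SLC25A22 -2.74, ASNS -2.52) and with ASNS summed with the gene that shares its exons (-1.56). It had 670, 833 and 977 counts in empty vector and 113, 142 and 162 in shKDM2B libraries, or 71.7 ± 7.14 against 11.3 ± 0.987 CPM. Every shKDM2B library lay far below every empty vector library, with a log2 fold change of -2.67 (SE 0.09, adjusted p 3.32e-11). SLC25A22 shares 10.8% of its exonic bases with PANO1 on the opposite strand. SLC25A18, the other glutamate carrier of the list, had only 6 to 11 counts in empty vector and 18 to 24 in shKDM2B libraries (log2 fold change 1.12, SE 0.32, adjusted p 0.00764). It passed the low-count filter through its shKDM2B libraries, where it is high, and its empty vector libraries alone would not have passed.

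The aspartate-glutamate carriers of the shuttle parted. SLC25A12 went from 30.7 ± 0.227 to 16.5 ± 0.697 CPM (-0.89 on the log2 scale, SE 0.08, adjusted p 3.33e-07), and SLC25A13 went from 50.7 ± 2.74 to 78.3 ± 2.57 CPM (0.62, SE 0.06, adjusted p 5.31e-07). SLC25A15, the ornithine carrier (-0.26, SE 0.10, adjusted p 0.0352), lost its call without empty vector replicate 2 or shKDM2B replicate 1 or 2 (adjusted p 0.104 to 0.135). SLC25A11, the oxoglutarate carrier (-0.17, SE 0.07, adjusted p 0.0412), lost it without empty vector replicate 3 or shKDM2B replicate 1 or 2 (0.0879 to 0.158), with DESeq2 (0.0784) and with limma-voom (0.0565). MDH2, the mitochondrial malate dehydrogenase (0.16, SE 0.06, adjusted p 0.0290), lost its call without empty vector replicate 1 or 3 or shKDM2B replicate 2 or 3 (adjusted p 0.0914 to 0.147), with scaling by library totals (0.0669) and without the low-count filter (0.105).

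**Figure D5:**
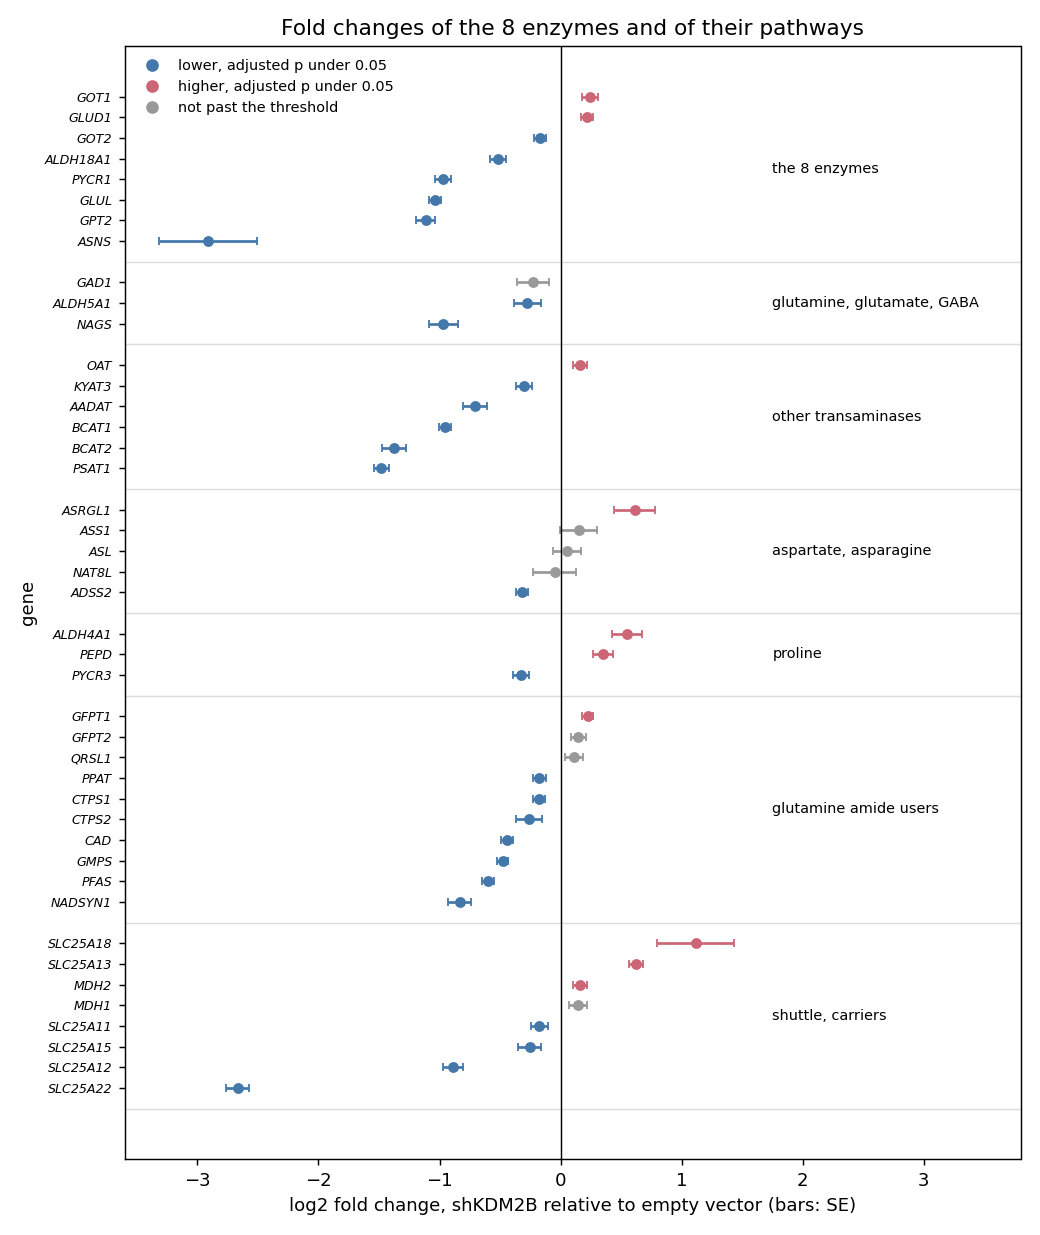
Log2 fold changes, shKDM2B relative to empty vector, of the 8 enzymes and 35 of the 37 other tested genes of their pathways, with bars of 1 SE (blue, called lower; red, called higher; grey, not past the threshold). ASNS, drawn from its own row, and SLC25A22 stand far to the left of all others. Summed with the gene that shares its exons, ASNS stood at -1.56.

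The word CGACAC in annotated 3' UTRs was examined because earlier work on these data had picked it out. Of the 596 tested genes that hold it, 50.3% were called lower, and of the 11306 that do not, 30.5%. Since the word was picked on these data, these shares only describe that choice and support nothing. It was searched in the longest coding transcript of each gene. None of the 8 enzymes holds it, nor do PYCR3, NAGS, PSAT1, BCAT1, SLC25A12 or ATF4. SLC25A22, BCAT2 and VIM, which were lower, hold it in 1 copy each, as do GAD1 and NAT8L, which did not pass the threshold. KDM2B, the gene that the hairpin targets, holds 2. The part of the word in the levels of these genes was not tested.

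For each enzyme the most alike gene was found among 10539 or 10540 tested genes with a mean of at least 5 CPM, by the root mean square difference of centred log2 CPM over the 6 libraries. GLUL was nearest to SEPHS1 (0.0232), which went from 98.6 ± 1.33 to 49.3 ± 1.52 CPM. PYCR1 was nearest to AGO2 (0.0241), GPT2 to CABIN1 (0.0493) and ALDH18A1 to SLC25A38 (0.0245). GLUD1 was nearest to IRGQ (0.0191), GOT1 to MARCKSL1 (0.0219) and GOT2 to IQSEC1 (0.0119). For ASNS the nearest was HIBADH (0.354), at a much larger distance than for the other 7. ASNS had only 1 to 31 counts per library, and the part of counting error in its distance was not tested. These distances describe 6 libraries in 2 groups.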

How the data were processed

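Counts of reads per gene were used as the authors deposited them, 1 column per library, with no normalization. Per the submitters' processing notes, STAR, Trim Galore, featureCounts, limma, edgeR and DESeq2 were used on GRCh38 (hg38). Versions, annotation release, strand setting and the treatment of shared reads were not stated in the sources used here. The identifier versions in the table are later than those of GENCODE 29 for all 8 enzymes. Libraries were made from ribosome-depleted total RNA, per the labels' protocols. Columns were matched to samples by name. The knockdown columns carry sh with a code that no label explains, then the replicate number, and were taken as shKDM2B, the only shRNA group. The labels call replicates biological without saying whether cultures were separate, so p-values measure only library spread, possibly technical. No library was a copy of another of its group (chi-square of their counts, per degree of freedom, 2.01 to 10.3).

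Low genes were removed by filterByExpr (at least 10 counts, total at least 15), and the 14071 left were scaled by TMM and tested with the robust two-sided quasi-likelihood test of edgeR 4.0.16 in R 4.3.3, with Benjamini-Hochberg adjustment. A positive log2 fold change means higher in shKDM2B. Each SE was derived from the F statistic, and CPM is scaled by TMM. Alternatives were other scalings, filters, DESeq2 (1.42.0), limma-voom (limma 3.58.1), leaving out each library, a 1.2-fold minimum change, a replicate block and dropping the robust step. The scripts were tested on simulated data. Ratios used exact permutation (scipy 1.17.1). Symbols matched 61415 of 61533 identifiers. Coordinates, exons and 3' UTRs are from GENCODE 29 on GRCh38, which may not be the release the counts were made with, and promoters are from RefSeq (GRCh38.p14). Intervals cover counting error only.

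The genes named are the 8 enzymes, the genes of the ratios, KDM2B, ATF4 and MYC, up to 4 called genes of each list with a mean of at least 5 CPM by size of change, genes at or near 0 counts, copies of the enzymes and the most alike genes. Others, ASRGL1, SLC25A18, GAD1, GFPT1, MDH2, SLC25A15, SLC25A11, VIM, KRT8, CTPS2, ASS1, ASL, NAT8L and OAT among them, were named after their values were seen. The 8 enzymes and the lists were chosen with earlier results of these data known. A comparison of protein sequences was not made here. Values of some listed genes are not reported here, while the counts over lists include all their members.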

Additional observations from a re-analysis of the deposited data

How the results depend on the processing

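All 8 enzymes kept their direction under every alternative run, and GLUL, GPT2, ASNS, ALDH18A1 and PYCR1 kept their call in all of them. With a minimum change of 1.2-fold, 5458 genes passed (2661 lower, 2797 higher), as did 5 of the 8 enzymes. GLUD1 (0.22), GOT1 (0.24) and GOT2 (-0.17) then missed the threshold (edgeR adjusted p 0.790, 0.538 and 0.987). By construction this sets a larger minimum. It left 0 enzymes called higher, also at an unadjusted p under 0.05, while DESeq2 and limma-voom each called 2. The pathway lists had 12 lower and 4 higher. Leaving out 1 library gave 7566 to 9128 called genes, 7 or 8 called enzymes, and -0.22 to -0.15 for GOT2, whose call was the only enzyme call lost. The pathway lists then had 17 to 20 lower and 6 to 9 higher, where all tested genes had 3768 to 4582 lower and 3798 to 4546 higher. The shared replicate numbers did not pair the libraries (correlations of deviations 0.118, -0.0258 and 0.0751 for numbers 1, 2 and 3), and not every library correlated best with its own number. With the replicate block 8479 genes (4230 lower, 4249 higher) and all 8 enzymes were called, and the pathway lists had 20 lower and 10 higher. GFPT2 and MDH1 gained a call with the block (adjusted p 0.0464 and 0.0461). GFPT2 also did so without empty vector replicate 1 or shKDM2B replicate 1 (0.18 and 0.19), as did MDH1 (0.25) and GAD1 without empty vector replicate 2. The cause of calls lost or gained was not tested. Scaling by library totals moved the median of all genes to -0.04. ASNS summed with the gene that shares its exons, added after the data were seen, had a log2 fold change of -1.56. Depth limits ASNS, since 3 counts are 0.191 to 0.294 CPM.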
